A study of Mus musculus with 12 samples.

Results

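The 10 genes of purine and adenosine signalling followed here in bone marrow-derived macrophages (BM-Mɸs) were the ATP-gated channels P2rx4 and P2rx7, the nucleotide receptors P2ry2, P2ry6 and P2ry14, the adenosine receptors Adora2a and Adora2b, and the enzymes Entpd1, Nt5e and Ada. They were taken from the table by gene symbol, with no threshold on a measured value, and make up 10 of the 22243 genes of the deposited table, with 16 of its 28808 transcripts. The 12 libraries of polyA RNA came from 6 mice labelled LysMCre/ErbB4-floxxed (KO; ErbB4myeKO in the study's terms) and 6 labelled ErbB4-floxxed (WT; ErbB4FF), all on a C57Bl/6 background and paired as littermates in 6 litters. Marrow from both genotypes was grown with M-CSF from CMG14-12 conditioned medium, given IFNγ at 100 U/mL over 16 h and then exposed to LPS at 100 ng/mL over 6 h, the so-called M1 activation. Both groups carry the floxed Erbb4 alleles, and the KO group adds a Cre under the lysozyme M promoter, which is active in myeloid cells. The labels give neither age nor sex, and each litter has its own batch letter, so that litter and batch cannot be told apart. There were no resting or singly treated cultures, so the values below describe activated cells and not their response to activation.

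Cells under stress or attack release ATP and other nucleotides, which act on the P2X channels and the G protein-coupled P2Y receptors of neighbouring cells. The membrane enzyme CD39, encoded by Entpd1, removes phosphates from ATP and ADP to leave AMP, CD73, encoded by Nt5e, turns AMP into adenosine, and adenosine deaminase, encoded by Ada, turns adenosine into inosine. In macrophages ATP acting on P2X7 is a well-known trigger of inflammasome activation and IL-1β release, whereas adenosine acting on the receptors encoded by Adora2a and Adora2b raises cAMP and restrains inflammatory cytokines.

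The targeted gene did not separate the labels. Erbb4, the receptor tyrosine kinase whose floxed alleles define the model, was at 0.280 to 0.852 TPM in libraries labelled KO and 0.372 to 0.716 TPM in those labelled WT (mean 0.583 ± 0.242 and 0.450 ± 0.132, SD, n = 6 each). TPM are transcript abundances scaled to transcript length and to the total of the library. Erbb4 was higher in the KO-labelled mouse in 4 of 6 litters (exact permutation p = 0.250), and TPM of whole transcripts do not show whether the floxed part is missing. The groups are therefore called by their labels throughout. As a check of the cell type, all 10 macrophage markers averaged at least 1 TPM and summed to 10110 to 13781 TPM in KO-labelled and 8370 to 16902 TPM in WT-labelled libraries, with the KO-labelled library higher in 1 of 6 litters. The most abundant of them, Lyz2, is the lysozyme M gene into which the Cre of this model is inserted, and it had 3116 to 7997 TPM in KO-labelled and 2964 to 13257 TPM in WT-labelled libraries, lower in KO in 5 of 6 litters. The sum of the other 9 markers was 3595 to 7849 TPM and 3645 to 8918 TPM, higher in KO in 4 of 6 litters. An effect of the Cre allele on Lyz2 and other causes of its level cannot be told apart. None of 10 lymphocyte or 8 erythroid markers averaged 1 TPM, and their sums stayed at or under 2.58 and 0.981 TPM. Neutrophil markers (4 of 10 at 1 TPM or more, 39.7 to 371 TPM in KO-labelled and 40.1 to 185 TPM in WT-labelled libraries, Retnlg at 0), dendritic cell markers (4 of 10, 46.1 to 123 and 34.3 to 94.9 TPM, Cd209a and Siglech at 0) and stromal markers (6 of 9, 9.28 to 105 and 16.1 to 99.3 TPM) were present, and their part in the results below was not tested.

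The P2Y and adenosine receptors had higher median levels than the channels and the enzymes, with Entpd1 the nearest to them and overlapping Adora2b and P2ry2 in range. These levels cover only the deposited principal transcripts, 4 each for P2ry14 and P2ry2 and 1 for each other gene. Other annotated transcripts are not counted, and Entpd1 has 11 in all, P2rx4 9 and P2rx7 8. By median TPM over 12 libraries, P2ry14 came first with 106 TPM, followed by Adora2a with 104 TPM and P2ry6 with 82.6 TPM. Adora2b had a median of 56.4 TPM, P2ry2 37.1 TPM and Entpd1 17.2 TPM. The remaining genes were low, with P2rx4 at 4.84 TPM, Ada at 4.33 TPM, P2rx7 at 1.00 TPM and Nt5e at 0.159 TPM. The order was not sharp at the top, since P2ry14 was above Adora2a in 8 of 12 libraries, Adora2a above P2ry6 in 9 and P2ry6 above Adora2b in 10. Adora2b stood above P2ry2, P2ry2 above Entpd1 and Entpd1 above P2rx4 in all 12 libraries, although each pair of ranges overlapped. P2rx4 and Ada could not be ordered, with P2rx4 above Ada in 5 of 12 libraries. Ada and P2rx7 were the only neighbours whose ranges did not overlap, and P2rx7 was above Nt5e in 11 of 12 libraries.

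**Figure D1:**
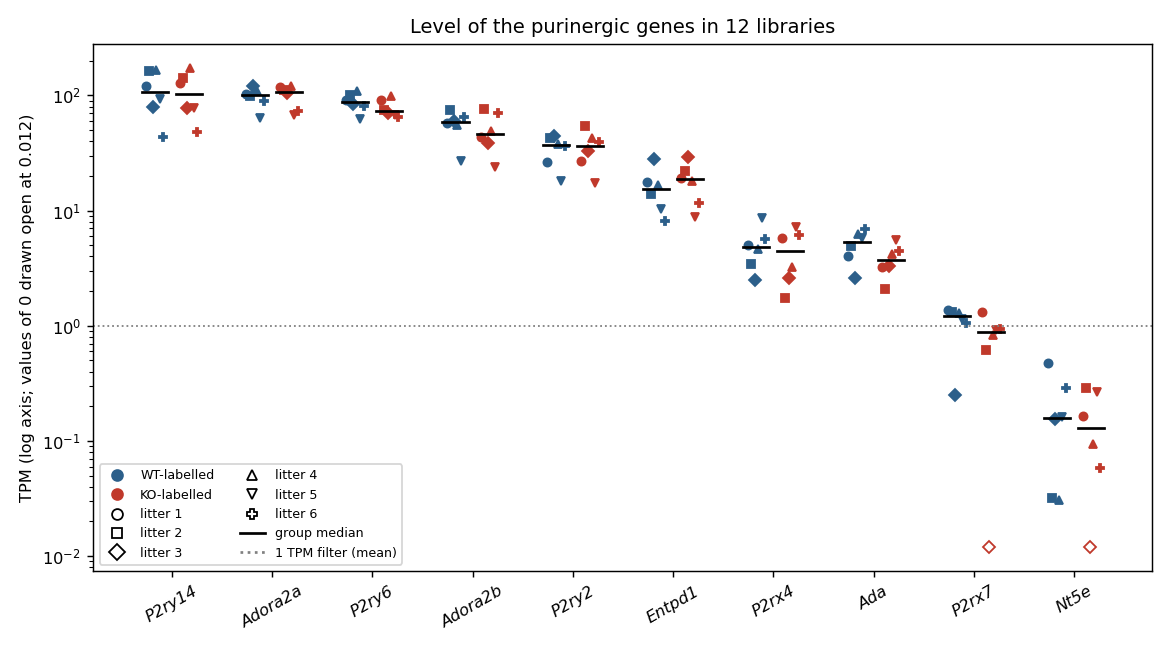
TPM (log axis) of the 10 purinergic genes in 12 libraries, with WT-labelled libraries in blue, KO-labelled libraries in red, a marker shape for each litter and a bar at each group's median. Open symbols are values listed at 0, and the dotted line is the mean of 1 TPM that a gene needed to enter the fit; in each gene the blue and red points overlap, and only P2rx7 and Nt5e average under the line.

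Between genotypes, none of the 8 purinergic genes that averaged 1 TPM or more passed the test. Genes were compared within litters by limma on log2(TPM + 0.5), with Benjamini-Hochberg adjustment over all 8780 genes tested, and the threshold of an adjusted p of 0.05 was passed by 0 of 8 purinergic genes and by 0.0% of all genes (smallest adjusted p over all genes 0.603). At an unadjusted limma p under 0.05 the counts were 0 of 8 and 8.21%. Fold changes were below 0 on the log2 scale in 5 of the 8 genes with a median of -0.10, against 50.2% of all genes tested and a median of -0.00068. The KO-labelled and WT-labelled libraries overlapped in every one of the 10 genes, and did so in all but 0.0456% of all genes tested. In these bulk cultures a smaller number of cells that express a gene and less RNA per cell cannot be told apart.

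**Figure D2:**
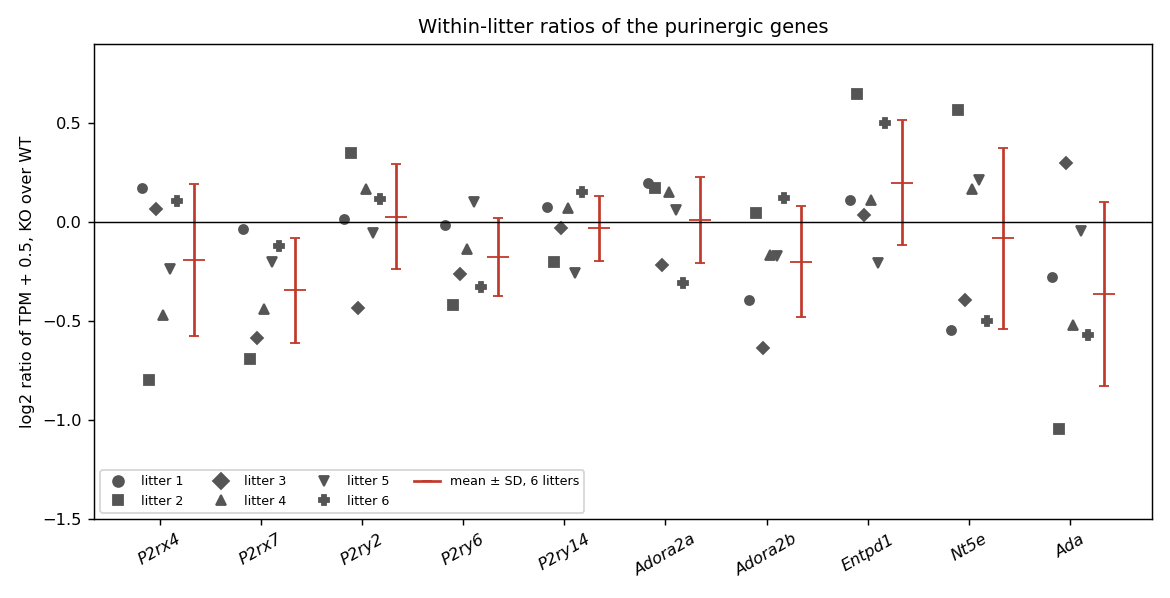
Within-litter log2 ratios of TPM + 0.5, KO-labelled over WT-labelled, for the 10 purinergic genes, with a marker for each of 6 litters and the mean ± SD in red. P2rx7 is the only gene with its 6 points on the same side of 0; its mean is -0.35 ± 0.27.

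P2rx7 was the purinergic gene with the most even direction across litters. It encodes the channel that opens at high extracellular ATP, and the table holds ENSMUST00000100737, 1 of 8 annotated transcripts of the gene (chromosome 5, 122643911 to 122691432, plus strand, GRCm38). In litters 1 to 6 the KO-labelled libraries had 1.32, 0.62, 0, 0.83, 0.92 and 0.94 TPM, the 0 being the value listed for litter 3. Their WT-labelled littermates had 1.37, 1.31, 0.25, 1.30, 1.13 and 1.06 TPM. Litter 3 was the lowest in both groups, and the KO-labelled value was the lower of each pair, by a log2 ratio of -0.03 in litter 1 to -0.69 in litter 2. Its within-litter log2 ratio averaged -0.35 ± 0.27 (SD over 6 litters; exact two-sided permutation p = 0.0312, the smallest that 64 swaps of genotype within litters can give, and the only one of the 10 genes with p under 0.05). Lower values in 6 of 6 litters were found for 1.38% of the 15865 genes above 0 in any library and for 2.31% of the 8780 that averaged 1 TPM or more. Higher values in 6 of 6 litters were found for 2.51% of the 8780, and their share of the 15865 is not given here. The exact test is two-sided, so both directions together are the background for this 1 of 10. With its mean of 0.921 TPM P2rx7 was under the 1 TPM filter, and in a limma fit of all 15865 genes it had an unadjusted p of 0.0476, as did 6.2% of genes at the 0.05 level, and an adjusted p of 0.764. The size of the difference depends on the constant added before the logarithm, with a mean ratio of -0.64 when 0.1 was added and -0.24 when 1 was added. The authors' mean for this transcript corresponds to 20.5 normalized counts per library, so that each value rests on few reads.

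P2rx4, a channel that responds to lower ATP than P2X7 does and is found largely on lysosomes in macrophages, lies beside P2rx7 on the same strand (chromosome 5, 122707544 to 122729738). It ranged from 1.76 to 7.25 TPM (median 4.48) in KO-labelled and from 2.48 to 8.64 TPM (median 4.84) in WT-labelled libraries. Litter 5 held the highest value of both groups, and the lowest were in litter 2 for KO and litter 3 for WT. The KO-labelled library was higher in 3 of 6 litters, and the log2 fold change was -0.19 (SE 0.16, limma adjusted p = 0.714), with a 95% interval from 0.680-fold to 1.13-fold. It was -0.071 without litter 2. P2rx4 exceeded P2rx7 in all 12 libraries, by 2.62-fold to 9.90-fold in TPM among WT-labelled libraries.

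The sequence before the first RefSeq start of P2rx7 is shown because this gene was the one lower in all 6 litters. It covers bases -250 to -17 from the start at 122643927 (RefSeq, GRCm38.p6, chr5:122643677-122643910, plus strand, written 5′ to 3′), and the capitals mark a match to the AP-1 motif at -249.
P2rx7 upstream: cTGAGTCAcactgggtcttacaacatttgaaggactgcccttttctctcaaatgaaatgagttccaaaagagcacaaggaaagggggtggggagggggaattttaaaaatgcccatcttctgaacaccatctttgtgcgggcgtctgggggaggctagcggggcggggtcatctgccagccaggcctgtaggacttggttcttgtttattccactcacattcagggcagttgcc
The 250 bases before each start were searched on both strands for 4 motifs of factors that interferons, LPS or cAMP engage, and the shares that follow are of 32851 such RefSeq windows. The motifs were AP-1 (TGANTCA, in 6.75% of windows), the ISRE core (GAAA, any 2 bases, GAAA, 2.98%), NF-kB (GGGA, any 4 bases, CC, 17.6%) and CRE, the cAMP response element (TGACGTCA, 1.55%). Windows were at hand for 8 of the 10 genes, 14 windows in all, and P2ry6 and Adora2a had none. AP-1 letters stood in the P2rx7 window of the start at 122643927 and in the P2ry14 windows of the starts at 59153492 and 59131328. NF-kB letters stood in the Ada and Nt5e windows and in the P2ry14 window of the start at 59130762. The P2rx7 window of the start at 122650383 and the P2ry14 window of the start at 59131118 held no match. No window held ISRE core or CRE letters, and the matches were not tested against the shares. A match is a stretch of letters and not a measured site, and the lack of one says only that these letters are not in the window.

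Among the P2Y receptors P2ry14 was the most abundant, and it differed more between litters than any difference between its littermates. It encodes the Gi-coupled receptor for UDP-glucose and related UDP-sugars (chromosome 3, 59113855 to 59153618, minus strand). The KO-labelled libraries of litters 1 to 6 had 127, 141, 77.5, 173, 77.0 and 48.2 TPM, and the WT-labelled ones had 121, 162, 79.0, 165, 92.2 and 43.4 TPM. Litter 4 was the highest and litter 6 the lowest in both groups, a 3.69-fold range of litter means, whereas the largest log2 ratio within a litter was 0.26 in size. The log2 fold change was -0.03 (SE 0.07, limma adjusted p = 0.902), with a 95% interval from 0.870-fold to 1.10-fold, and the KO-labelled library was higher in 3 of 6 litters. Litter accounted for 98.6% of the sum of squares of its log2 values, against a median of 78.1% over all genes tested. P2ry14 lies inside Med12l, which is on the other strand and was listed at 0 to 0.273 TPM. Whether the counting used the strand is not given in the sources used here.

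The 4 P2ry14 transcripts of the table encode the same 338 residues from 1 coding exon and differ in their starts and leading exons. ENSMUST00000091112 and ENSMUST00000065220 start within a few bases of each other at 59130622 and 59130624, ENSMUST00000197220 at 59131327 and ENSMUST00000196081 far upstream at 59153492. ENSMUST00000091112 was the largest in 10 of 12 libraries and held 32.3% to 67.5% of the gene's TPM. Its log2 fold change was -0.01 (SE 0.06, limma adjusted p = 0.986), with ratios within litters of -0.14 to 0.15. ENSMUST00000196081, from the distal start, was the largest in both libraries of litter 5 with 44.4 and 62.4 TPM in KO and WT, but it was listed at 0 in the KO-labelled library of litter 3 against 28.1 TPM in its littermate. Its log2 fold change of -0.90 (SE 0.86, limma adjusted p = 0.784) rested on that library, and was 0.09 without litter 3. ENSMUST00000065220 had 25.2 against 2.67 TPM in litter 3 and 5.72 against a value near 0 in litter 5, and a log2 fold change of 0.95 (SE 0.69, limma adjusted p = 0.731), which was 0.54 without litter 3 and 0.41 without litter 5. ENSMUST00000197220 was above 0 in 1 library, the WT-labelled one of litter 2, with 1.59 TPM. Between 93.1% and 100% of the 31-base words of each transcript also occur in another transcript of the gene, so that the division among them is uncertain and the sum less so.

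Stretches before the distal and the nearest P2ry14 starts are shown because the transcripts differ there and not in the protein. The first covers bases -250 to -127 from the RefSeq start at 59153492, the start of ENSMUST00000196081 (chr3:59153619-59153742, minus strand), with the AP-1 match at -202 in capitals. The second covers bases -80 to -1 from the RefSeq start at 59130762, near those of the other main transcripts (chr3:59130763-59130842, minus strand), and holds none of the 4 motifs, although the whole window of this start holds NF-kB letters at -103, in a part not printed because it is an exon of another P2ry14 transcript. Both are from GRCm38.p6 and written 5′ to 3′ on the strand of the gene.
P2ry14 distal: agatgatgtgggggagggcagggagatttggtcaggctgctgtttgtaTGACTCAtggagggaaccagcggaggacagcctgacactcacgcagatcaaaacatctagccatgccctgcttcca
P2ry14 proximal: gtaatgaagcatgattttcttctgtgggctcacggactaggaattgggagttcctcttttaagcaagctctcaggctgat

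**Figure D3:**
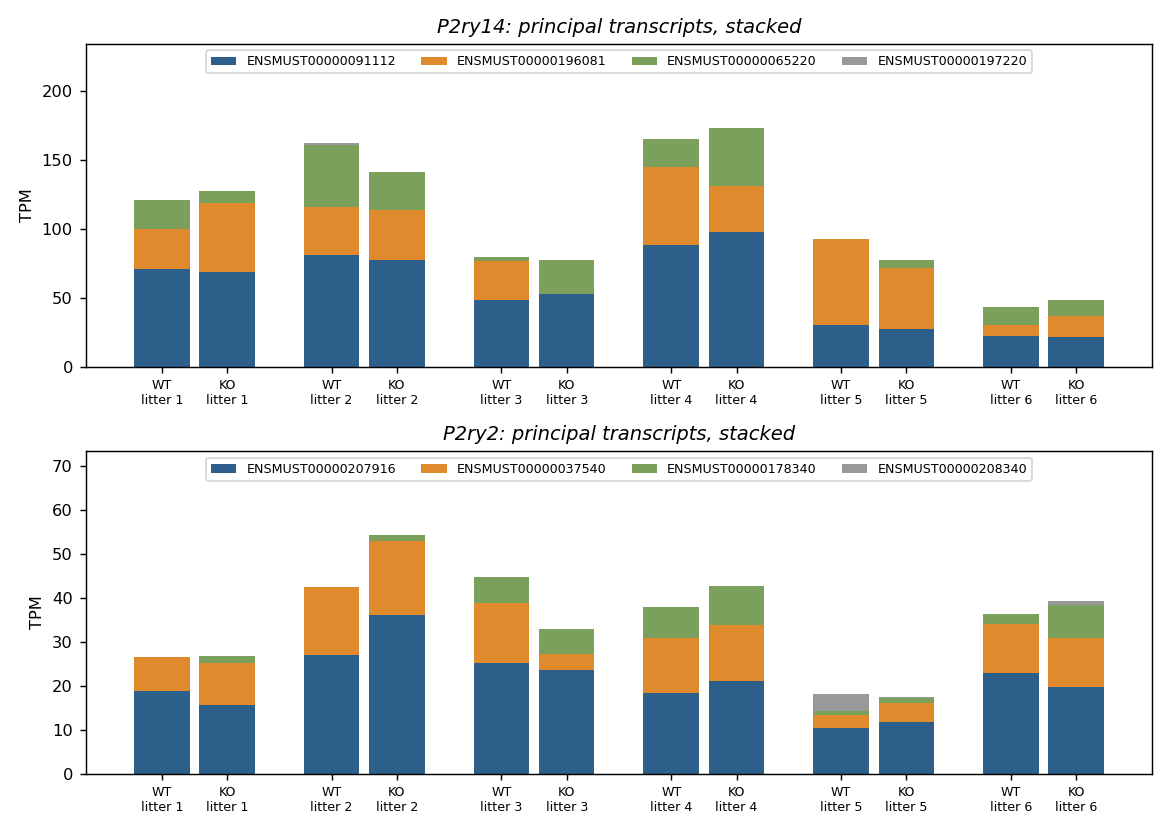
TPM of the principal transcripts of P2ry14 (top) and P2ry2 (bottom), stacked so that the bar's height is the gene's TPM, for the WT-labelled and KO-labelled library of each litter. The P2ry14 sums of littermates are close while the distal-start transcript ENSMUST00000196081 (orange) is missing from the KO-labelled library of litter 3; the largest P2ry2 transcript is ENSMUST00000207916 in every bar.

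P2ry6, the Gq-coupled receptor for UDP, was one of the less variable of these genes. It lies on chromosome 7 (100937630 to 100974649, minus strand) and overlaps the gene model Gm44545 on the other strand. KO-labelled libraries had 64.7 to 98.9 TPM (median 72.6) and WT-labelled libraries 62.6 to 109 TPM (median 87.8). The KO-labelled library was lower in 5 of 6 litters, litter 5 being the other. Its log2 fold change was -0.18 (SE 0.08, limma unadjusted p = 0.0651, adjusted p = 0.603; exact permutation p = 0.0938), and the 95% interval ran from 0.775-fold to 1.01-fold.

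P2ry2, the receptor for ATP and UTP that serves phagocytes in sensing dying cells, is next to P2ry6 on the same strand (100996568 to 101012866). It had 17.4 to 54.4 TPM (median 36.2) in KO-labelled and 18.1 to 44.7 TPM (median 37.1) in WT-labelled libraries, the lowest of both groups in litter 5. The log2 fold change was 0.03 (SE 0.10, limma adjusted p = 0.943), with a 95% interval from 0.862-fold to 1.21-fold, and the KO-labelled library was higher in 4 of 6 litters. P2ry6 exceeded P2ry2 in all 12 libraries, by a median of 2.35-fold. All 4 P2ry2 transcripts in the table encode the same 373 residues, and ENSMUST00000207916 was the largest in 12 of 12 libraries with 48.5% to 71.5% of the gene's TPM and a log2 fold change of 0.04 (SE 0.11, limma adjusted p = 0.938). The minor ENSMUST00000178340 was higher in the KO-labelled library in 5 of 6 litters, with 1.64, 1.39, 5.82, 8.81, 1.30 and 7.49 TPM in litters 1 to 6 of KO and 0.011, near 0, 5.90, 6.94, 0.799 and 2.26 TPM in WT. Its log2 fold change of 1.05 (SE 0.33) had an unadjusted limma p of 0.0163 and an adjusted p of 0.685, and it was the only one of the 6 P2ry2 and P2ry14 transcripts tested with an unadjusted p under 0.05, beside 6.72% of the 10085 transcripts tested. The value was 1.75 with 0.1 and 0.78 with 1 added before the logarithm, and 98.7% of its 31-base words occur in other P2ry2 transcripts. No transcript of the table passed an adjusted p of 0.05 (0.0%).

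Both Gs-coupled adenosine receptors of the A2 type were well expressed, and Adora2a exceeded Adora2b in each library. Adora2a, the high-affinity receptor (chromosome 10, 75316877 to 75334784, plus strand), had 67.1 to 121 TPM (median 108) in KO-labelled libraries and 64.3 to 122 TPM (median 101) in WT-labelled libraries. Litter 5 was the lowest of both groups. The log2 fold change of 0.01 (SE 0.09, limma adjusted p = 0.976) had a 95% interval from 0.876-fold to 1.16-fold, with the KO-labelled library higher in 4 of 6 litters.

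Adora2b, the low-affinity receptor (chromosome 11, 62248984 to 62266453, plus strand), had 24.0 to 76.8 TPM (median 46.4) in KO-labelled and 27.0 to 74.4 TPM (median 58.6) in WT-labelled libraries. Litter 5 was again the lowest of both groups and litter 2 the highest. The log2 fold change was -0.20 (SE 0.11, limma adjusted p = 0.622; exact permutation p = 0.125), with a 95% interval from 0.733-fold to 1.03-fold, and the KO-labelled library was lower in 4 of 6 litters. Without litter 3 the value was -0.11. Adora2a over Adora2b ran from 1.03-fold to 2.80-fold in KO-labelled and from 1.32-fold to 2.38-fold in WT-labelled libraries.

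The enzymes that act in sequence on extracellular nucleotides were unequal in level. Entpd1, encoding CD39 (chromosome 19, 40612366 to 40741602, plus strand), had 8.85 to 29.0 TPM (median 18.7) in KO-labelled and 8.09 to 28.3 TPM (median 15.3) in WT-labelled libraries. Litter 3 was the highest of both groups. The KO-labelled library was higher in 5 of 6 litters, and the log2 fold change was 0.20 (SE 0.12, limma adjusted p = 0.651; exact permutation p = 0.219), with a 95% interval from 0.942-fold to 1.40-fold. It was 0.11 without litter 2. The table holds 1 of its 11 annotated transcripts.

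Nt5e, encoding CD73 (chromosome 9, 88327197 to 88372092, plus strand), was near the lower end of what the table can show. Litters 1 to 6 had 0.17, 0.29, 0, 0.09, 0.27 and 0.06 TPM in KO-labelled and 0.47, 0.03, 0.16, 0.03, 0.16 and 0.29 TPM in WT-labelled libraries, with 1 value listed at 0. The KO-labelled library was higher in 3 of 6 litters, and its within-litter log2 ratio averaged -0.08 ± 0.46 (SD over 6 litters; exact permutation p = 0.688). Entpd1 was above Nt5e in all 12 libraries.

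Ada, encoding adenosine deaminase (chromosome 2, 163726584 to 163750239, minus strand), had the lowest fold change of the 8 genes tested. In litters 1 to 6 it had 3.24, 2.11, 3.29, 4.19, 5.59 and 4.47 TPM in KO-labelled and 4.04, 4.88, 2.59, 6.23, 5.78 and 6.89 TPM in WT-labelled libraries. The KO-labelled library was the lower in 5 of 6 litters and the higher in litter 3, and the groups overlapped. The log2 fold change of -0.36 (SE 0.18, limma unadjusted p = 0.0810, adjusted p = 0.603; exact permutation p = 0.125) had a 95% interval from 0.583-fold to 1.04-fold. Leaving out 1 litter gave between -0.49 and -0.22, the latter without litter 2, whose ratio was -1.05. Entpd1 exceeded Ada in all 12 libraries, by 1.17-fold to 10.9-fold.

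Litter was the larger source of spread in most of these genes, as in the table at large. The range of litter means, on the log2 scale, exceeded the largest ratio within a litter in 8 of 10 genes, the exceptions being Ada and Nt5e. The same held for 55.2% of the genes above 0 in any library and for 75.7% of those that averaged 1 TPM or more, so that it is a property of much of the table. Against the median of 78.1% over all genes tested, litter took 93.6% of the sum of squares for P2ry2, between 85.7% and 90.4% for Entpd1, Adora2b, Adora2a, P2rx4 and P2rx7, 75.8% for P2ry6, 60.4% for Ada and 41.0% for Nt5e. Litter 5 stood low for 5 genes, being the lowest litter mean of P2ry2, P2ry6, Adora2a, Adora2b and Entpd1, and high for P2rx4 and Ada. The litter means of P2ry2, for instance, were 17.8 TPM in litter 5 and 48.5 TPM in litter 2, and those of P2rx4 7.94 TPM in litter 5 and 2.55 TPM in litter 3.

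Other genes of purine biology were read from lists of 84 genes, of which 83 were in the table and 48 averaged at least 1 TPM. None of the 48 passed the limma threshold (smallest adjusted p 0.603), and at an unadjusted p under 0.05 the lists held 2 genes higher in KO-labelled libraries and 3 lower, beside 3.83% and 4.38% of all genes tested. Their median log2 fold change was -0.03, with 22 above 0 and 26 below.

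The receptor families had few other members at these levels. Of 5 further P2X genes only P2rx5 averaged 1 TPM, with 0.808 to 3.54 TPM in KO-labelled and 0.435 to 1.99 TPM in WT-labelled libraries. It was higher in KO in 6 of 6 litters, as were 2.51% of all genes tested, with a log2 fold change of 0.57 (SE 0.21, limma unadjusted p = 0.0285, adjusted p = 0.603). The ratio of litter 6 was only 0.017, and the fold change was 0.76 with 0.1 and 0.44 with 1 added before the logarithm. Its unadjusted limma p was 0.121 without the litter block, and 0.0196 (without litter 6) to 0.0831 (without litter 4) with 1 litter left out. The authors' mean for its transcript corresponds to 18.4 normalized counts per library. P2rx1, the other named channel, averaged 0.058 TPM. Of 5 further P2Y genes 2 were tested, the ADP receptors P2ry13, with a mean of 47.8 TPM and a log2 fold change of -0.07 (SE 0.12), and P2ry12, with a mean of 4.47 TPM and -0.33 (SE 0.23), or -0.15 without litter 3. The other adenosine receptors were not tested, since Adora3 averaged 0.693 TPM and Adora1 was listed at 0 in all 12 libraries.

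Among enzymes, transporters and channels that set extracellular nucleotides and nucleosides, levels were high for the NAD-consuming ectoenzyme Cd38 (mean 207 TPM) and its paralogue Bst1 (47.1 TPM). Their log2 fold changes were -0.03 (SE 0.08) and 0.05 (SE 0.12), and 0 of the 8 ectoenzymes tested had an unadjusted p under 0.05. The concentrative nucleoside transporter Slc28a2 had 42.5 to 171 TPM in KO-labelled and 43.0 to 277 TPM in WT-labelled libraries and was lower in KO in 6 of 6 litters, as were 2.31% of all genes tested (log2 fold change -0.42, SE 0.15, limma unadjusted p = 0.0209, adjusted p = 0.603). Between 50.5% and 55.2% of the 31-base words of its transcripts also occur in Gm14085, so that its level is uncertain. Slc29a1, the equilibrative transporter ENT1, averaged 6.31 TPM and was listed at 0 in 1 library, the KO-labelled one of litter 3. Its log2 fold change was -0.17 (SE 0.52) with all litters and 0.38 without litter 3. Of the ATP release channels, Calhm6 averaged 561 TPM and Gja1, encoding connexin 43, 17.5 TPM, with log2 fold changes of 0.00089 (SE 0.08) and -0.02 (SE 0.18). Calhm2, chosen after its values were seen, was lower in KO in 6 of 6 litters with a mean of 1.59 TPM (log2 fold change -0.37, limma unadjusted p = 0.0568, adjusted p = 0.603).

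Inside the cell, purine salvage and breakdown genes gave 1 of 20 tested with higher values and 2 with lower values at an unadjusted limma p under 0.05, beside 3.83% and 4.38% of all genes tested. Higher values in 6 of 6 litters were found for 2.51% of all genes tested and lower values for 2.31%. Ampd3, which deaminates AMP to IMP, had 26.4 to 139 TPM in KO-labelled and 14.1 to 115 TPM in WT-labelled libraries and was higher in KO in 6 of 6 litters (log2 fold change 0.56, SE 0.19, unadjusted p = 0.0197, adjusted p = 0.603), with 0.37 left without litter 2. Samhd1, which breaks down dNTPs, had 156 to 343 TPM and 177 to 415 TPM in KO and WT and was lower in KO in 6 of 6 litters (log2 fold change -0.31, SE 0.10, limma unadjusted p = 0.0150, adjusted p = 0.603), and at -0.21 without litter 2. Xdh, the xanthine oxidoreductase that makes uric acid and a gene chosen after its values were seen, was lower in KO in 5 of 6 litters (log2 fold change -0.58, SE 0.22, limma unadjusted p = 0.0335, adjusted p = 0.603; exact permutation p = 0.0625), and at -0.34 without litter 2, whose ratio was -1.76. Pnp, which splits inosine, the product of adenosine deaminase, averaged 1313 TPM, the most of these lists, and was lower in KO in 6 of 6 litters by a log2 of -0.04 to -0.19 (fold change -0.11, SE 0.05, limma unadjusted p = 0.0552, adjusted p = 0.603). It shares 27.9% to 61.7% of its 31-base words with Pnp2 and Gm49342. Of the 10 de novo synthesis genes tested, none had an unadjusted p under 0.05, and Paics (mean 29.3 TPM) and Impdh2 (27.6 TPM, 77.3% of 31-base words shared with Impdh2-ps) had log2 fold changes of -0.05 (SE 0.06) and 0.12 (SE 0.10), the latter 0.047 without litter 2.

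**Figure D4:**
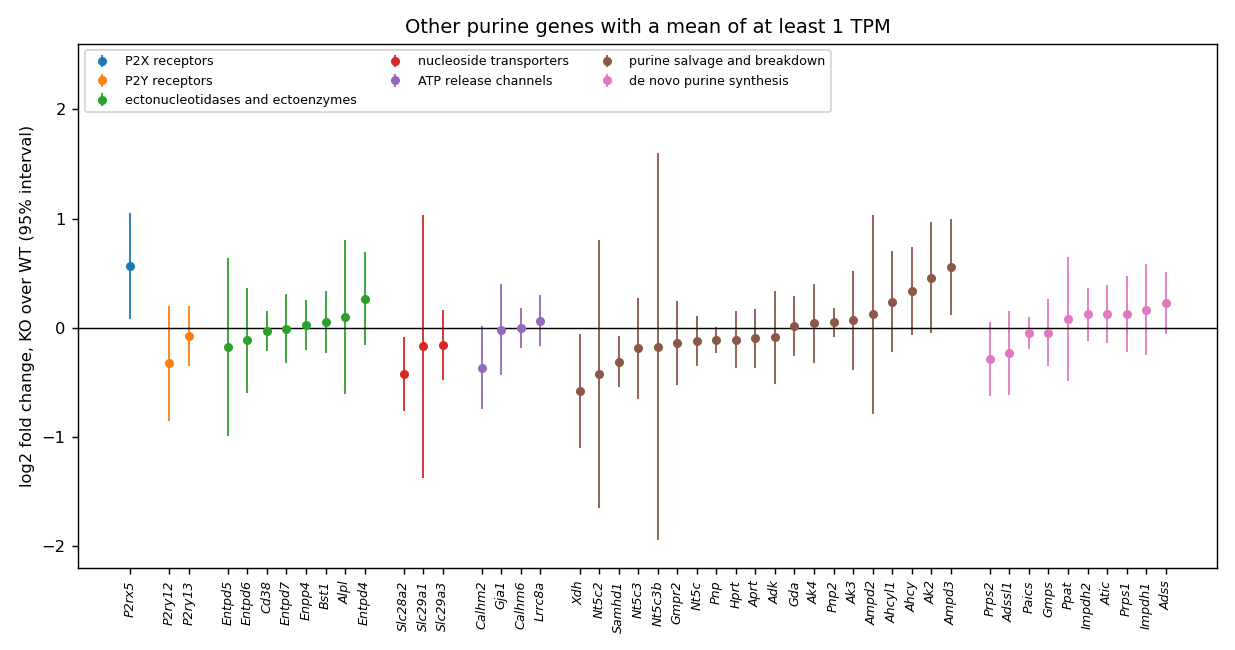
Log2 fold change of TPM + 0.5, KO-labelled over WT-labelled, with its 95% limma interval, for the 48 other purine genes that averaged at least 1 TPM, coloured by list. The intervals of P2rx5 and Ampd3 lie above 0 and those of Slc28a2, Xdh and Samhd1 below 0, and none passed adjustment over the 8780 genes tested.

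The gene most like each purinergic gene was found by Pearson's r over the 12 libraries after each litter's mean had been taken away, so that 6 differences between littermates carry each r. The partners were Hpgds for P2rx4 (r = 0.992), Tut1 for P2ry2 (0.975), Bst2 for P2ry6 (0.992), Tbc1d1 for P2ry14 (0.978), Galns for Adora2a (0.957), Dhx32 for Adora2b (0.987), Lars for Entpd1 (0.986) and Nceh1 for Ada (0.994). Each is the best among all genes tested, and between 1 gene for P2ry14 and 56 for Ada exceeded an r of 0.95, so these are descriptions of the closest pattern only.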

How the data were processed

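Per the labels, CASAVA, kallisto and sleuth were used with mm10, from single-ended 75 bp reads of a stranded mRNA kit, and the versions and the transcriptome release are not given in the sources used here. The authors deposited 1 table of TPM per transcript for principal isoforms, with p-value, q-value and fold columns of their own comparison, which were not used, and the mean natural log (ln) of normalized estimated counts, deposited as a value over all libraries. The table gives no read count per library, and precision rests on the spread between litters. Principal transcripts held 59.0% to 74.7% of each library's TPM, and 10214 to 12985 genes were above 0.

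After 405 repeated lines had been dropped, TPM were summed by gene. The 8780 genes averaging 1 TPM or more over the 12 libraries entered limma 3.58.1 (R 4.3.3; lmFit and eBayes, trend on) as log2(TPM + 0.5), with genotype as the effect and litter as a block. The step had been tested on simulated data. It was repeated for 10085 transcripts. For single genes an exact two-sided permutation test swapped genotype inside litters in all 64 ways. Littermates are paired by the labels' number and batch letter, and their deviations correlated at 0.273 to 0.774 in the 6 litters.

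Named genes were the 10 genes, the 2 highest of each list, list genes with an unadjusted p under 0.05 and the same direction in 6 litters, the most alike gene of each tested gene, and Erbb4. Alternatives were the fit without the litter block, another constant (0.1 or 1), another filter (none, or 5 TPM), median-ratio rescaling, eBayes with the trend off, a term for the mean of 4 Y-linked genes in place of the unlabelled sex, each litter left out, and the highest transcript alone. The genes and lists were proposed with earlier results of these data known. The NF-kB letters were narrowed after a looser form had matched a large share of windows. Positions are from GENCODE M21 (GRCm38), where all 28808 transcripts were found. Python 3.11.15, numpy 2.4.6, pandas 2.3.3 and matplotlib 3.10.9 were used.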

Additional observations from a re-analysis of the deposited data

Results flagged for a closer look

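Dixon's ratio is the gap between the most extreme library and its neighbour divided by the whole range. It was taken on log2(TPM + 0.5) in 20 groups of 6 libraries, and on 10 sets of 6 within-litter log2 ratios. The ratios printed below are on that log2 scale and do not follow from the TPM beside them. It was above its 95% critical value in 2 of these 30 tests, both of them groups of libraries, and chance puts about 1 in 20 groups above it. The WT-labelled library of litter 3 had 0.250 TPM of P2rx7, below the other WT-labelled libraries (ratio 0.806), and the KO-labelled littermate was listed at 0. The WT-labelled library of litter 5 had 27.0 TPM of Adora2b, below the other WT-labelled libraries (ratio 0.709), and the KO-labelled littermate, with 24.0 TPM, was the lowest of its group too. Littermates thus stood low together in both cases.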

How the results depend on the processing

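Adjusted calls were 0 for the purinergic genes, their transcripts and the wider lists under each alternative run, including the fit without the block for litter, in which the pairing is ignored (for Ada a log2 fold change of -0.36 with an SE of 0.26 in place of 0.18). Direction and side of the threshold were kept by 409 of 442 recomputed values of single genes and transcripts and by 47 of 53 counts. Much of this was fixed beforehand, so these counts do not measure robustness. Dropping the litter block, changing the filter or turning the trend off leaves a log2 fold change as it was. Adjusted p values were far above 0.05 (smallest 0.603 over genes in the main fit). Crossings of 0.05 by an unadjusted limma p were not counted. With 5 litters the smallest exact p is 0.0625, so that the count of genes with an exact p under 0.05 went from 1 to 0 whichever litter was left out, and P2rx7 kept ratios of -0.41 to -0.28. Signs turned for 27 values. Leaving out 1 litter gave log2 fold changes of -0.037 to 0.12 for P2ry2, -0.068 to 0.014 for P2ry14, -0.027 to 0.074 for Adora2a and -0.21 to 0.010 for Nt5e. It gave -1.25 to 0.090 for ENSMUST00000196081 and -0.036 to 0.022 for ENSMUST00000091112 of P2ry14, and -0.27 to 0.17 for ENSMUST00000037540 and -0.040 to 0.096 for ENSMUST00000207916 of P2ry2. Among the wider genes it gave -0.14 to 0.036 for P2ry13, -0.086 to 0.030 for Cd38, -0.055 to 0.13 for Bst1, -0.47 to 0.38 for Slc29a1, -0.14 to 0.10 for Gja1 and -0.026 to 0.078 for Calhm6, which was -0.0090 after rescaling by median ratios. The cause of these turns was not tested. P2rx7 and Nt5e averaged under 1 TPM, and no depth per library is in the table.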

Other observations

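The litters differed in how far apart the littermates stood in these genes. The mean absolute log2 ratio over the 10 purinergic genes was 0.494 in litter 2. It was 0.295 in litter 3, 0.282 in litter 6, 0.240 in litter 4, 0.185 in litter 1 and 0.155 in litter 5. The same mean over all genes is not given here, so the wide gap in litter 2 cannot be called particular to these genes. Litter 2 held the lowest ratio of Ada (-1.05) and the highest of Entpd1 (0.65), so that CD39 transcripts were higher and adenosine deaminase transcripts lower in its KO-labelled library. In litter 6 the same genes stood at the ends, with -0.57 for Ada and 0.50 for Entpd1. Litter 3 went the other way, with Ada the highest ratio (0.30) and Entpd1 at 0.036, as did litter 5, with Entpd1 at -0.21 and Ada at -0.045. The log2 difference of Entpd1 over Ada was higher in KO in 4 of 6 litters (mean 0.56, SD 0.745). Whether the 2 genes change together was not tested.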
